A study of Mus musculus with 8 samples.

Results

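The chemokine system of cultured mouse forelimb buds comprised 47 genes of the 21692 in the deposited table. They were chosen by name, as the CC and CXC ligands and receptors together with Cx3cl1 and the atypical receptors Ackr1 to Ackr4. The rule uses no measured value, but earlier results of these data were known when it was chosen. By class there were 17 CC ligands, 11 CXC ligands, 1 CX3C ligand, 9 CC receptors, 5 CXC receptors and 4 atypical receptors. Forelimb buds of CD1 mouse embryos, taken on gestation day 13, were kept in culture for 24 h. The 4 control libraries (vehicle 1 to 4) received dimethyl sulfoxide (DMSO), and the 4 treated libraries (OPE 1 to 4) received organophosphate esters (OPE), a class used as flame retardants and plasticisers, mixed after Canadian house dust and given at a dilution of 1 in 300000. Messenger RNA was selected by its poly-A tail and sequenced. No label ties a replicate to a litter or a culture dish, so p-values measure only the spread between these samples, which may be technical.

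Chemokines are small secreted proteins that attract migrating cells, above all leukocytes, through receptors coupled to inhibitory G proteins. Atypical receptors bind the ligands without that coupling and clear or redistribute them. In the limb, Cxcl12 and its receptor Cxcr4 are known for guiding muscle precursors and vessels, while many CC ligands are products of macrophages and act on monocytes and macrophages. The classes are named after the spacing of the first cysteines of the mature protein, and that spacing can be read in the coding sequence. The following bases around it are from the GENCODE M21 transcripts of the ligands whose values are described first, 5′ to 3′ on the coding strand. Capitals mark the paired cysteine codons, adjacent in CC ligands, separated by 1 codon in CXC ligands and by 3 in the CX3C ligand.
Ccl2: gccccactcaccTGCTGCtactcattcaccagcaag
Ccl9: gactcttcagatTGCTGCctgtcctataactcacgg
Ccl6: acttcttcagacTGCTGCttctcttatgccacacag
Cxcl12: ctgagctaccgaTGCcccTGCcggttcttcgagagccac
Cxcl14: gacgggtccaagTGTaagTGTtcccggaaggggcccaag
Cx3cl1: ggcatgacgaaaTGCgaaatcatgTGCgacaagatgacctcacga
The capitals of Ccl2 lie in exon 2 on chromosome 11 (82036506 to 82036511, plus strand), and those of Ccl9 (83575926 to 83575931) and Ccl6 (83589386 to 83589391) in exon 3 on the minus strand of the same chromosome. Those of Cxcl12 lie in exon 2 on chromosome 6 (117171508 to 117171516), those of Cxcl14 in exon 2 on chromosome 13 (56295915 to 56295923) and those of Cx3cl1 in exon 2 on chromosome 8 (94778051 to 94778065), all in mm10.

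The libraries held between 14986793 and 22006738 counted reads. Of 13 limb mesenchyme and cartilage markers in the table all 13 were tested, with a summed level of 9925 to 11655 CPM (reads scaled to a common library size) in the vehicle libraries and 10104 to 11043 CPM in the OPE libraries, so the libraries carried the transcripts that the labelled tissue should have. Of 27 macrophage markers 25 were in the table, none of them at 0 reads in every library, and they summed to 282 to 319 CPM with vehicle and 109 to 171 CPM with OPE. The 21 endothelial markers summed to 519 to 610 CPM with vehicle and 327 to 471 CPM with OPE. OPE 1 had the lowest sum of both lists, and OPE 3 had the highest sum of erythroid markers, 2643 CPM against at most 1486 CPM in the other libraries. In bulk RNA, fewer cells of a type and less RNA per cell cannot be told apart.

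In the vehicle libraries the most abundant members were 2 CXC ligands and the 2 receptors of Cxcl12, 1 of them atypical. Levels are compared between genes in FPKM, the deposited unit, which scales reads by gene length and library depth. Cxcl14, a ligand of epithelia and mesenchyme whose receptor is debated, stood at 110.1 ± 12.6 FPKM (SD, n = 4), Cxcl12 at 29.0 ± 1.10 FPKM, its scavenging receptor gene Ackr3 at 18.3 ± 1.15 FPKM and its signalling receptor gene Cxcr4 at 15.4 ± 1.02 FPKM. In this order the lowest vehicle library of each gene lay above the highest of the next, down to Ccl27a at 7.66 ± 1.30 FPKM, a ligand known from skin, which in turn lay above Ccl25 at 3.41 ± 0.27 FPKM. From Ccl25 down, each gene overlapped the next, as Ccl25 did with Ccl3 at 3.09 ± 1.08 FPKM, except that Ccl21a lay wholly above Ccl9. The remaining tested members had between 0.219 FPKM (Ccl28) and 1.56 FPKM (Cxcl16). Cxcl12 and Cxcl14 made up 82.7% to 85.6% of the summed ligand FPKM in the vehicle libraries and 76.0% to 87.3% in the OPE libraries. Cxcr4 and Ackr3 made up 88.6% to 90.5% of the summed receptor FPKM with vehicle and 88.7% to 90.6% with OPE. The CC receptors contributed little to that sum, and none of the 9 had enough reads for the test.

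**Figure D1:**
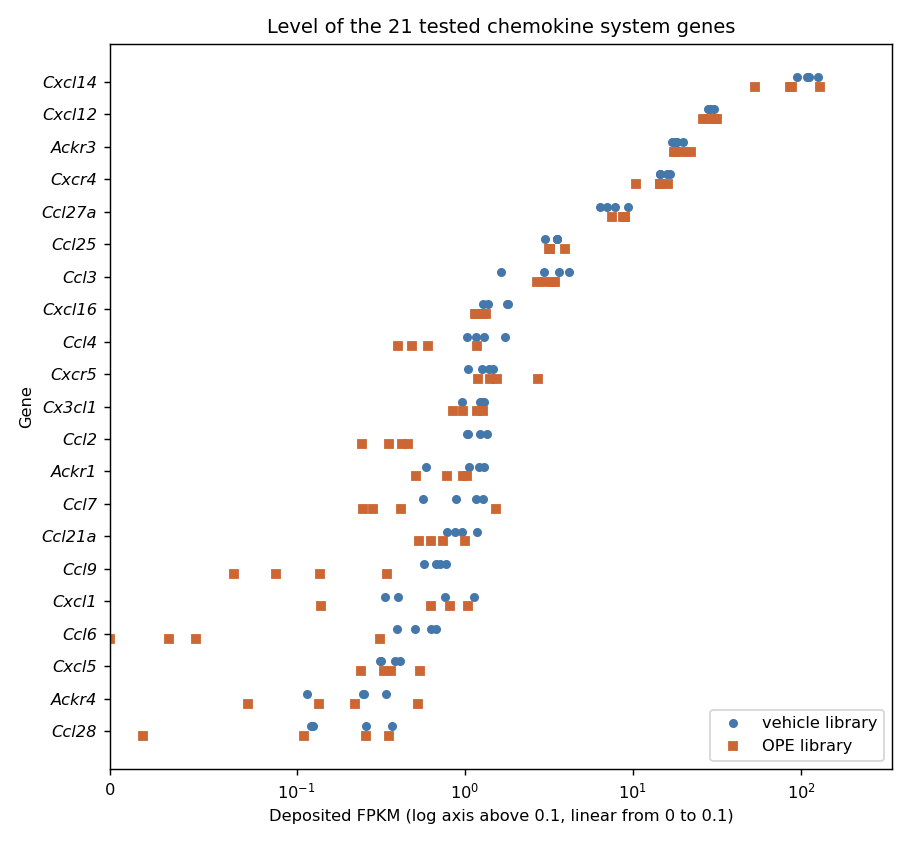
Deposited FPKM (horizontal axis, logarithmic above 0.1 and linear below) of the 21 tested members, ordered by their vehicle mean, with 1 point per library (blue circles vehicle, orange squares OPE). Cxcl14 and Cxcl12 lead; the OPE squares of Ccl2, Ccl9 and Ccl6 lie to the left of every vehicle circle of the same gene, and 1 OPE library of Ccl6 is at 0.

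The comparison of OPE with vehicle asked whether the mixture changed these genes. Of the 47 members 21 passed the filter on low counts, and none of the 21 passed an adjusted p of 0.05 in edgeR's quasi-likelihood test, against 0.477% of all 15517 genes tested in either direction and 0.438% lower. At an unadjusted p of 0.05, 3 of the 21 passed in edgeR, or 14.3%, which is near the 13.2% of all genes. All 3 were CC ligands with lower values: Ccl2, Ccl9 and Ccl6. With DESeq2 these 3 passed, against 3.45% of all genes, and with limma-voom Ccl9 alone did, against 0.651%. In the authors' deposited table, Ccl2 and Ccl9 had adjusted p-values under 0.05 (0.0138 and 0.00103), against 2.68% of all genes with such a value, and Ccl6 had 0.0702. The log2 fold change was below 0 for 12 of the 21, or 57.1%, against 47.2% of all genes tested. The median over the 21 was -0.11, against 0.01 over all genes tested. By class the median was -0.47 over the 10 CC ligands, 0.06 over the 5 CXC ligands and 0.05 over the 5 receptors tested. Ccl2, Ccl9 and Ccl6 passed the filter through their vehicle libraries, so the filter shaped these counts and medians. Macrophages are a known source of many CC ligands. Among 23 tested macrophage markers 7 fell and 22 lay below 0 on the log2 fold change scale (median -1.09). Among 21 endothelial markers 2 fell and 18 lay below 0 (median -0.46). The part of either cell type in the members' values was not tested.

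**Figure D2:**
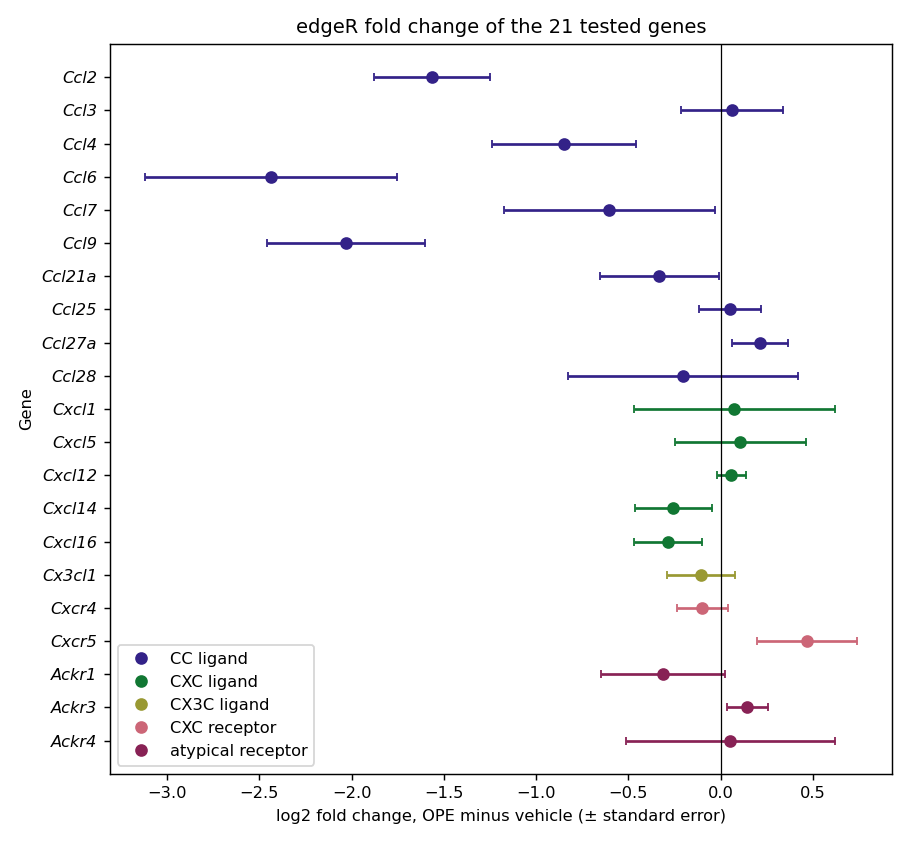
The edgeR log2 fold change (OPE minus vehicle, horizontal axis) of the 21 tested members, coloured by class, with bars of 1 standard error. The CC ligands Ccl6, Ccl9 and Ccl2 lie farthest to the left at -2.43, -2.03 and -1.56, while Cxcl12 at 0.06 has the shortest bar.

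Ccl2 (ENSMUSG00000035385), the monocyte attractant also called MCP-1, had the lowest p of the family in edgeR, while Ccl9 had it with DESeq2 and limma-voom. It stood at 1.47, 1.33, 1.12 and 1.11 CPM in vehicle 1 to 4 and at 0.508, 0.463, 0.416 and 0.266 CPM in OPE 1 to 4. All OPE values were below all vehicle values, and the highest OPE value was under the lowest vehicle value by more than the SD of either group (0.172 and 0.105 CPM). The log2 fold change was -1.56 ± 0.31 (SE; edgeR adjusted p = 0.0552). These levels rest on 24 to 26 reads per vehicle library and 4 to 11 per OPE library. Leaving out single libraries gave -1.70 to -1.42 with adjusted p from 0.0508 to 0.178, and the threshold was missed in each of these 8 fits. Because the groups did not overlap, leaving out a library could not change the direction.

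Ccl9, a CC ligand of mouse macrophages and osteoclasts that acts through Ccr1, had 1.69, 1.99, 2.11 and 2.26 CPM in vehicle 1 to 4 and 0.415, 0.199, 1.11 and 0.266 CPM in OPE 1 to 4. The groups did not overlap, and OPE 3 was the OPE library nearest to the vehicle range. Its log2 fold change was -2.03 ± 0.43 (edgeR adjusted p = 0.0656). Without OPE 3 it was -2.70 with an adjusted p of 0.0062, which passes, as did 1.95% of all genes in that fit. Of the 8 fits that left out a single library, only this 1 passed for Ccl9. Without both OPE 1 and OPE 3 its log2 fold change was -3.08 with an adjusted p of 0.00833, where 0.531% of all genes passed. Across 20 alternative fits Ccl9 passed in 8, with adjusted p from 0.000713 to 0.178.

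Ccl6, a close relative of Ccl9 that macrophages also make, had 0.960, 0.714, 0.562 and 0.888 CPM in vehicle 1 to 4. In the OPE libraries it had 0.0462, 0, 0.486 and 0.0666 CPM, which are 1, 0, 7 and 1 reads. The groups did not overlap, though OPE 3 came close to vehicle 3. The log2 fold change was -2.43 ± 0.68 (edgeR adjusted p = 0.153). Without OPE 3 it was -4.12 with an adjusted p of 0.013, where 1.95% of all genes passed. Of the 8 fits that left out a single library, only this 1 passed for Ccl6, and adjusted p reached 0.339. Ccl2, Ccl9 and Ccl6 were the 3 of 21 tested members, 14.3%, whose OPE values all lay below the vehicle values. Over all genes tested the share was 5.44%. None of the 21 lay wholly above, against 4.05%. These 3 genes passed the filter on low counts through their vehicle libraries, where they are high. The filter therefore shaped the 14.3%, which gives no support for a change of the family.

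These genes belong to groups of neighbours on chromosome 11, and the neighbours gave mixed values. Ccl2 (82035571 on the mm10 plus strand) is followed 10141 bases on by Ccl7, a related attractant of monocytes. Ccl7 had 1.02, 0.918, 0.702 and 0.444 CPM in vehicle 1 to 4 and 0.231, 0.199, 1.32 and 0.333 CPM in OPE 1 to 4. OPE 3 was the highest of all 8 libraries, and the other OPE libraries were below every vehicle library. Its log2 fold change was -0.60 ± 0.57 (edgeR adjusted p = 0.735) with all libraries and -1.57 without OPE 3 (adjusted p = 0.113). Ccl9 and Ccl6 are adjacent on the minus strand with their lower coordinates 14963 bases apart. The lower coordinate of Ccl3 lies 59962 bases beyond that of Ccl6. Ccl3, the inflammatory ligand MIP-1 alpha, had 1.24 to 3.11 CPM with vehicle and 2.05 to 2.84 CPM with OPE, a log2 fold change of 0.06 ± 0.28 (edgeR adjusted p = 0.956). Ccl4, the MIP-1 beta gene next to it, had 0.677, 1.12, 0.843 and 0.755 CPM in vehicle 1 to 4 and 0.785, 0.265, 0.347 and 0.400 CPM in OPE 1 to 4. OPE 1 lay inside the vehicle range and the other OPE libraries below it, and the log2 fold change was -0.85 ± 0.39 (edgeR adjusted p = 0.387), or -1.32 without OPE 1 (adjusted p = 0.258).

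**Figure D3:**
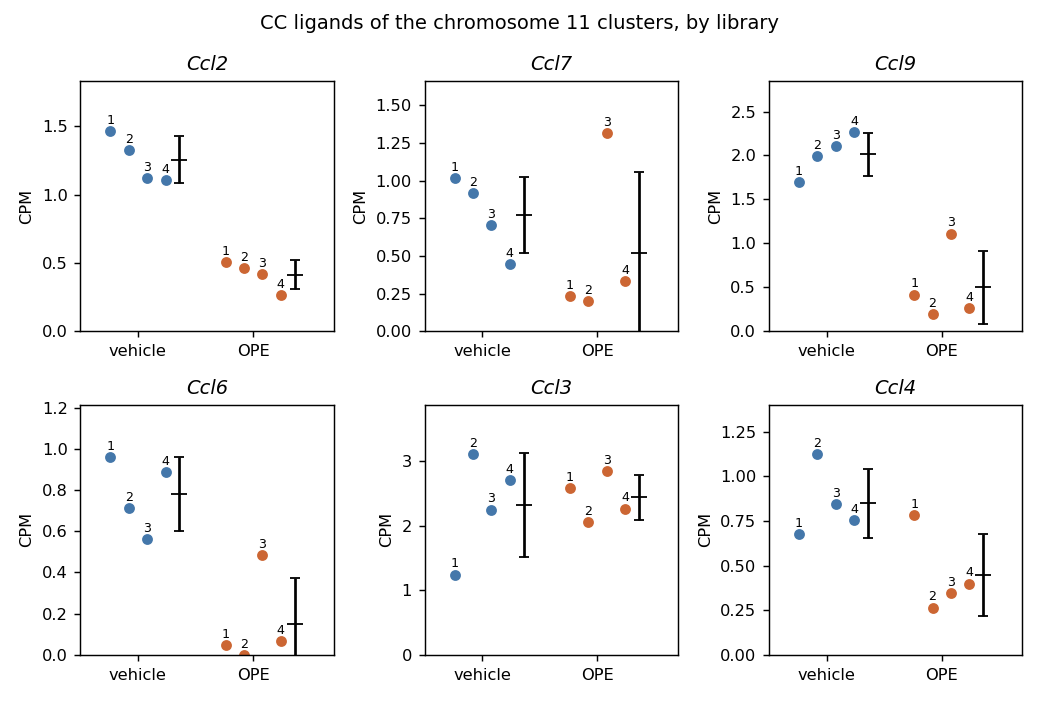
CPM (vertical axes, each from 0) of 6 CC ligands of the chromosome 11 groups, 1 numbered point per library, with the mean and SD of each group in black (bars end at 0 for Ccl7 and Ccl6). Ccl2, Ccl9 and Ccl6 are lower in all 4 OPE libraries; OPE 3 is the highest OPE point of Ccl7, Ccl9 and Ccl6, and the 2 groups of Ccl3 overlap.

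The ratio between neighbours was compared within each library, over the 5 pairs of consecutive tested members whose lower coordinates lay within 200000 bases. The log2 ratio of Ccl6 to Ccl3 was -1.40 ± 0.74 (SD, n = 4) with vehicle and -3.63 ± 0.91 with OPE (exact two-sided permutation p = 0.0286, the smallest that 4 against 4 libraries allow; adjusted p = 0.143 over the 5 pairs). The ratio of Ccl9 to Ccl6 was 1.27 ± 0.40 and 1.35 ± 0.34 (exact permutation p = 0.771). The ratio of Ccl3 to Ccl4 was 1.30 ± 0.38 and 2.26 ± 0.49 (exact permutation p = 0.0571, adjusted p = 0.143). For Ccl2 with Ccl7 and for Cxcl5 with Cxcl1 the exact permutation p was 0.371 and 0.886. No pair passed the adjustment, and with 5 pairs a single pair at the smallest p cannot be adjusted below 0.143, so this says little about the ratios.

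Because Ccl9 and Ccl6 were both lower and lie side by side, the 250 bases before their starts are shown, from RefSeq promoters of GRCm38.p6. That table held 33 of the 47 members. Both are on the minus strand and printed 5′ to 3′ as the gene reads, chr11:83578637-83578886 for Ccl9 and chr11:83593088-83593337 for Ccl6. Capitals mark matches to motifs searched on both strands, the AP-1 site as TGANTCA and a PU.1 core as GAGGAAG.
Ccl9: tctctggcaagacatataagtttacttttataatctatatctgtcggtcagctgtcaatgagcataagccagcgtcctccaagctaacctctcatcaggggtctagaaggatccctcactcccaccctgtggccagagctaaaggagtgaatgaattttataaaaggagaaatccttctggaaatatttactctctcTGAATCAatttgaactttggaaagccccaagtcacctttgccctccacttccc
Ccl6: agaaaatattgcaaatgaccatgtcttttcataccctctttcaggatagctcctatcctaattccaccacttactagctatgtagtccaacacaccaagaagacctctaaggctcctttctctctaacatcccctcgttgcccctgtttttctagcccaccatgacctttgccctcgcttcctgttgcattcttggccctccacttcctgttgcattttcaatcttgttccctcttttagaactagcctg
The Ccl9 window held 1 AP-1 match and no PU.1 match, and the Ccl6 window held neither. Of 32817 promoter windows of this length, 6.75% held the AP-1 letters and 10.6% the PU.1 letters. A match is a run of letters and says nothing of binding.

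The other CC ligands tested showed small differences or wide errors. Ccl27a averaged 7.49 ± 1.24 CPM with vehicle and 8.68 ± 0.84 CPM with OPE (SD, n = 4; log2 fold change 0.21 ± 0.15 SE, edgeR adjusted p = 0.612). Ccl25, an attractant of thymocytes, averaged 3.72 ± 0.30 and 3.84 ± 0.41 CPM (0.05 ± 0.17). Ccl21a, a ligand of lymphatic vessels and lymph nodes, averaged 0.812 ± 0.149 and 0.644 ± 0.176 CPM (-0.33 ± 0.32), and Ccl28, a ligand of mucosal surfaces, 0.805 ± 0.440 and 0.711 ± 0.573 CPM (-0.20 ± 0.62). The groups of each of these 4 genes overlapped. Ccl21a and Ccl27a have near-identical copies in the mouse genome, so their counts are uncertain. In GENCODE M21 exons of Ccl27a overlap the abundant gene Il11ra1 by 8 bases and those of Ccl25 overlap Elavl1 by 204 bases, each on the opposite strand. The strand setting of the counting was not stated in any source used here, so reads inside these overlaps cannot be assigned to either gene with certainty.

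Genes of the Cxcl12 axis overlapped between the groups. Cxcl12, the ligand of Cxcr4 and Ackr3, had 156, 159, 169.5 and 158 CPM in vehicle 1 to 4 and 159, 177, 158 and 174 CPM in OPE 1 to 4. The groups overlapped, and the log2 fold change was 0.06 ± 0.08 (SE; edgeR adjusted p = 0.83). Cxcr4 had 28.5, 29.3, 25.8 and 25.7 CPM in vehicle 1 to 4 and 18.8, 26.0, 28.1 and 29.1 CPM in OPE 1 to 4. OPE 1 was the only OPE library below the vehicle range, and the log2 fold change moved from -0.10 ± 0.14 (edgeR adjusted p = 0.825) to 0.02 without it. Ackr3, which takes up Cxcl12 without G protein signalling, had 51.6 to 60.5 CPM with vehicle and 54.0 to 73.0 CPM with OPE (0.14 ± 0.11, edgeR adjusted p = 0.629), with OPE 3 the highest. Endothelial cells are known to express Cxcr4, and OPE 1 was also the lowest library of the endothelial marker list, with a median of -0.94 on the log2 scale relative to the vehicle mean against -0.32 to -0.21 in the other OPE libraries; its part in the value of Cxcr4 was not tested.

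Cxcl14 varied most among the abundant members. It had 171, 200.2, 194 and 223 CPM in vehicle 1 to 4 and 98.0, 234, 173 and 156 CPM in OPE 1 to 4. OPE 2 was the highest and OPE 1 the lowest of all 8 libraries, and the log2 fold change was -0.26 ± 0.21 (edgeR adjusted p = 0.664), -0.08 without OPE 1 and -0.48 without OPE 2. Ectoderm markers, whose cells are a known source of Cxcl14, summed to 245, 507, 361 and 214 CPM in OPE 1 to 4 and to 334 to 430 CPM in the vehicle libraries. OPE 2 was the highest there too, but the lowest was OPE 4 for these markers and OPE 1 for Cxcl14. Their part in the Cxcl14 values was not tested. Cxcl16, a membrane-bound ligand and scavenger receptor, averaged 4.15 ± 0.70 CPM with vehicle and 3.41 ± 0.34 CPM with OPE (SD, n = 4; log2 fold change -0.29 ± 0.18 SE, edgeR adjusted p = 0.556). Cx3cl1, or fractalkine, averaged 3.88 ± 0.48 and 3.61 ± 0.56 CPM (-0.11 ± 0.19, edgeR adjusted p = 0.874). The neutrophil attractants Cxcl1 and Cxcl5 averaged under 1 CPM in each group, with log2 fold changes of 0.07 ± 0.55 and 0.11 ± 0.36, and the standard errors leave changes of that size undetectable at this depth. Cxcl16 overlaps Zmynd15 by 552 exonic bases on the opposite strand.

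**Figure D4:**
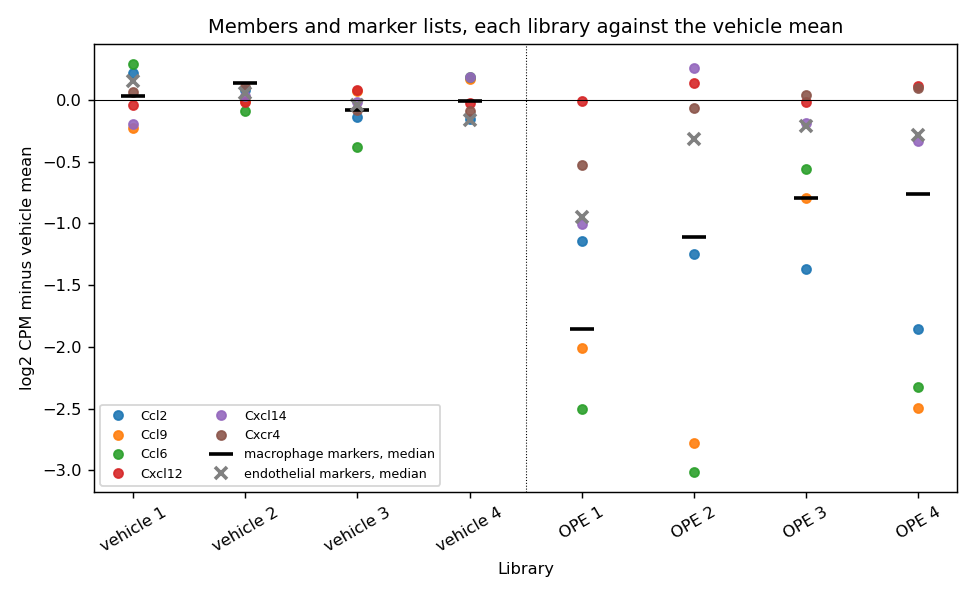
For each library, the log2 CPM of 6 members minus the mean of the vehicle libraries (vertical axis, 0 is the vehicle mean), with the medians of the macrophage (black bars) and endothelial (grey crosses) marker lists. Ccl2, Ccl9 and Ccl6 lie below 0 in all 4 OPE libraries, as does the macrophage median at -1.85, -1.11, -0.79 and -0.76. The macrophage median is lowest in OPE 1, Ccl2 in OPE 4, and Ccl9 and Ccl6 in OPE 2. The ligands' order rests on few reads, for Ccl6 on 1, 0, 7 and 1 in OPE 1 to 4. The part of macrophages in these values was not tested. Cxcl12 stays near 0, and Cxcl14 and Cxcr4 are lowest in OPE 1.

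Among the other receptors tested, Cxcr5, known as a B cell receptor for Cxcl13, had 2.94, 3.88, 3.51 and 4.04 CPM in vehicle 1 to 4 and 3.42, 3.97, 8.25 and 4.40 CPM in OPE 1 to 4. OPE 3 was the highest library and the other OPE values were near the vehicle range. The log2 fold change was 0.47 ± 0.27 (SE; edgeR adjusted p = 0.509), and 0.12 without OPE 3. Exons of Cxcr5 overlap those of Bcl9l, which held 21328 reads against 613 for Cxcr5, by 110 bases on the opposite strand, so this value is uncertain. Ackr1, a receptor of venules and red cells, averaged 1.18 ± 0.35 CPM with vehicle and 0.974 ± 0.266 CPM with OPE (-0.31 ± 0.34), and it overlaps Cadm3 on its own strand by 361 bases. Ackr4, a scavenger of Ccl19, Ccl21 and Ccl25, averaged 0.633 ± 0.246 and 0.673 ± 0.592 CPM (0.05 ± 0.56), and it overlaps Acad11 by 479 bases on the opposite strand. The groups of these 3 receptors overlapped.

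The 26 members that did not pass the filter held 774 reads in all, between 4 and 76 each, and are described by reads summed over the 4 libraries of a group and by the depth-scaled ratio of OPE to vehicle. Its exact 95% binomial interval covers counting error only, since PCR copies are not independent molecules and libraries also vary. Ccr1, the receptor of Ccl3, Ccl6 and Ccl9, had 12, 8, 13 and 5 reads in vehicle 1 to 4 and 1, 1, 4 and 0 in OPE 1 to 4, and OPE 3 at 0.277 CPM was above vehicle 4 at 0.222 CPM. Its ratio was 0.194 (0.0669 to 0.462). When all genes with at least 1 read were fitted with edgeR, the log2 fold change of Ccr1 was -2.29 with an adjusted p of 0.23, against 0.627% of all genes past the threshold in that fit.

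Other low members went in either direction. Cxcl2, a neutrophil attractant induced in inflammation, had 5, 8, 4 and 1 reads in vehicle 1 to 4 and 32, 12, 10 and 4 in OPE 1 to 4, a ratio of 3.95 (2.30 to 7.13) to which OPE 1 contributed 32 of the 58 OPE reads. OPE 4 lay inside the vehicle range, and the edgeR log2 fold change without the filter was 1.84 (adjusted p = 0.232). Cxcl10, an interferon-induced ligand, had 9, 9, 11 and 17 reads in vehicle 1 to 4 and 11, 5, 0 and 1 in OPE 1 to 4, with a ratio of 0.453 (0.244 to 0.806), and it overlaps Art3 by 133 bases on the opposite strand. The 9 other low members with at least 20 reads were Cxcr1, Ccr10, Ccr8, Ccl11, Ackr2, Ccr9, Ccl19, Cxcl11 and Ccr7. Their ratios ran from 0.552 (Cxcr1, 0.221 to 1.27) to 1.58 (Ccr7, 0.90 to 2.82), and each interval held 1. With so few reads the intervals were wide, as for Ackr2 with 37 reads in each group (0.756 to 1.99). Differences inside an interval could not be detected. The last 13 members had between 4 and 18 reads each and no interval that excluded 1: Ccl5, Ccl12, Ccl17, Ccl20, Ccl24, Cxcl3, Cxcl15, Cxcl17, Ccr2, Ccr3, Ccr4, Cxcr2 and Cxcr6. Ccr2, the receptor of Ccl2 and Ccl7 on monocytes, was among them with 12 reads with vehicle and 6 with OPE.

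**Figure D5:**
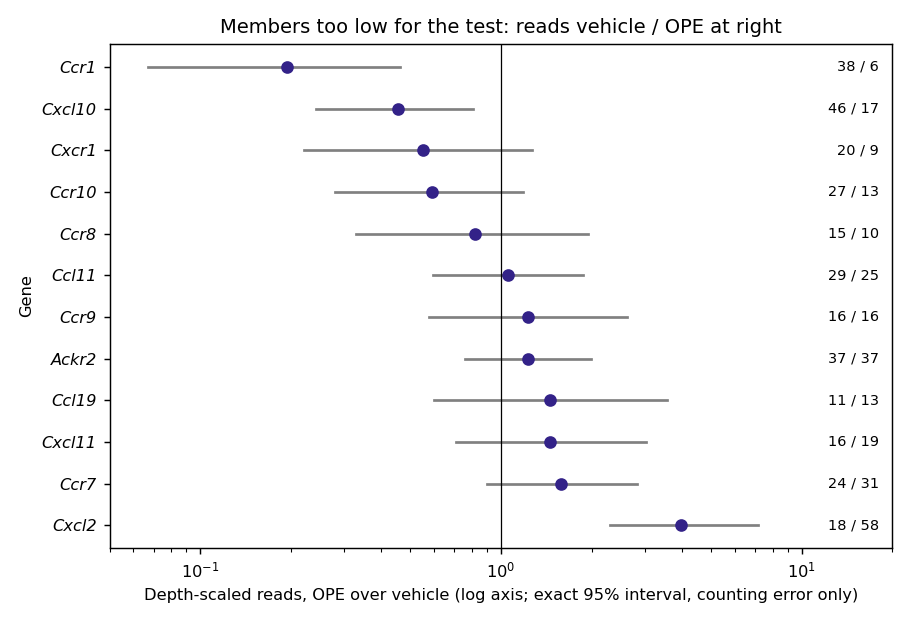
Depth-scaled ratio of OPE to vehicle reads (horizontal logarithmic axis, with exact 95% intervals for counting error) for 12 members under the filter that had at least 20 reads, with the reads of vehicle and OPE at the right. The intervals of Ccr1 and Cxcl10 lie below 1 and that of Cxcl2 above it.

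Beyond these members, 3 lists of the chemokine pathway were examined, chosen like the members with earlier results of these data known. Of 12 tested genes of the wider chemokine system 1 fell in edgeR, Cx3cr1, the macrophage receptor of Cx3cl1, against 0.438% of all genes tested. At an unadjusted p of 0.05, 4 of the 12 passed, or 33.3%, against 13.2% of all genes. The list's median log2 fold change was 0.05. Cx3cr1 had 8.30 to 13.6 CPM with vehicle and 0.508 to 2.66 CPM with OPE (-2.76 ± 0.37, edgeR adjusted p = 0.0158), while its ligand Cx3cl1 overlapped between the groups. Next by p were Ccrl2, an atypical relative of the chemokine receptors whose OPE values all lay above the vehicle values (1.04 ± 0.31, edgeR adjusted p = 0.174), and Cmtm8 (0.62 ± 0.20, edgeR adjusted p = 0.209). Pf4, a CXC ligand of platelets and macrophages outside the naming pattern, had 0.976 to 1.58 CPM with vehicle and 0.185, 0.463, 1.60 and 0.599 CPM in OPE 1 to 4 (-0.90 ± 0.51, edgeR adjusted p = 0.491). As for Ccl7, OPE 3 was its highest library and the other OPE libraries were its lowest.

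For chemokine receptor signalling 44 genes were tested, of which 1 fell in edgeR, against 0.438% of all genes tested. At an unadjusted p of 0.05, 9 of the 44 passed, or 20.5%, against 13.2% of all genes. The median log2 fold change was -0.0027. Neither of the following passed the threshold. Rac2, a small GTPase of blood cells, gave -1.35 ± 0.27 (edgeR adjusted p = 0.0593) and Pik3cd, a leukocyte phosphoinositide 3-kinase, -0.44 ± 0.11 (edgeR adjusted p = 0.115). Rac2 and Pik3cd are genes of blood cells, and the macrophage markers were lower in the same libraries; their part in these values was not tested. Of 32 tested inducers and NF-kappa B response genes none passed in edgeR, and 4 had an unadjusted p under 0.05, or 12.5%, against 13.2% of all genes tested. The list's median was 0.01. The lowest p belonged to Ptgs2, cyclooxygenase 2, which had 0.621 to 1.52 CPM with vehicle and 1.47 to 4.98 CPM with OPE (1.43 ± 0.39, edgeR adjusted p = 0.141), followed by Irf7 (-1.34 ± 0.46, edgeR adjusted p = 0.234) and Tlr4 (-0.61 ± 0.27, edgeR adjusted p = 0.354).

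Markers of other leukocytes that carry chemokine receptors were at low levels. Lymphocyte markers summed to 2.43 to 6.44 CPM with vehicle and 3.04 to 4.86 CPM with OPE over 7 genes in the table. Granulocyte and mast cell markers summed to 39.4 to 44.0 CPM and 31.9 to 41.7 CPM, most of it from Kit (25.1 to 34.4 CPM with vehicle), which other cells also express. None of the 10 lymphocyte, granulocyte and mast cell markers tested passed the threshold. Lymphatic endothelial markers summed to 66.8 to 77.1 CPM with vehicle and 51.3 to 64.1 CPM with OPE, and platelet markers to 17.7 to 20.2 CPM and 11.4 to 15.8 CPM, none of them past the threshold; their part in the values of Ccl21a and Pf4 was not tested.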

How the data were processed

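The members, the lists and the rule for named genes were chosen with earlier results of these data known. Named with values were members past the threshold, tested members, members with at least 20 reads below the filter, and from each pathway list the genes that passed and the 3 of smallest p, with Cx3cr1 and Pf4; 1 member below the filter and 1 pathway gene are not reported here. Tools listed in the submitters' processing notes were STAR 2.5, HTSeq 0.6.1, CASAVA 1.8 and DESeq2 (version given as 2), with mm10 as the build. Annotation release and strand setting: not given in the sources used here. Per the file headers, the authors deposited raw read counts per gene, FPKM, and a log2 fold change with p-values. The deposited signal columns are counts divided by a constant per library and were not used. Of the genes found in GENCODE M21, 99.9% overlap their deposited position. All 8 libraries, grouped by title, entered edgeR 4.0.16 in R 4.3.3 (TMM, filterByExpr, robust quasi-likelihood, group as the only term, two-sided, Benjamini-Hochberg over 15517 genes, threshold 0.05). CPM uses TMM-scaled totals, and log2 CPM has a prior count of 2. The alternatives were 20, with DESeq2 1.42.0 and limma 3.58.1 among them. Libraries of a group differed by more than counting noise (lowest chi-square over its degrees of freedom, 4.80). The steps were tested on simulated data.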

Additional observations from a re-analysis of the deposited data

Results flagged for a closer look

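Of 42 groups of 4 libraries (21 genes in each of 2 groups), 3 had 1 library far from the rest by Dixon's test, which chance alone does in about 1 group of 20. In OPE 3, Ccl6 stood at 0.486 CPM against 0 to 0.0666 CPM in the other OPE libraries, and Ccl7 at 1.32 CPM against 0.199 to 0.333 CPM. In vehicle 2, Ccl25 stood at 3.26 CPM against 3.82 to 3.89 CPM in the other vehicle libraries.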

How the results depend on the processing

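No member passed in edgeR as fitted, and 1 to 3 passed in 8 of 20 alternatives, each of them Ccl2, Ccl9 or Ccl6. The count of members was 3 with DESeq2 (Ccl2, Ccl6, Ccl9), 2 with library totals as scaling and 2 with the gene length trend removed (Ccl2 and Ccl9 each), 1 without a filter, 1 with limma-voom, 1 without both OPE 1 and OPE 3, and 1 with the newer quasi-likelihood method, chosen after seeing the data (Ccl9 each). It lay between 0 and 2 when single libraries were left out, with 2 (Ccl6 and Ccl9) without OPE 3 and 0 in the 7 other fits. Of all genes, 74 passed, and 131 did with library totals, 136 without a filter, 536 with DESeq2, 351 with the length trend removed (196 lower and 155 higher, against 68 and 6) and 112 with the newer method. Leaving out single libraries gave 7 to 308 genes and a median over the members of -0.28 (without OPE 3) to -0.038 (without OPE 1), against -0.11. With the replicate number as a block, 0 members and 62 genes passed, and the median was -0.11. Deviations of same-numbered libraries correlated at 0.31, 0.08, 0.01 and 0.09, and the best match was the own number for 2 of 4. The labels do not say whether same-numbered libraries share a litter or a culture, and these correlations cannot decide it. The log2 fold changes of Ccl2, Ccl9 and Ccl6 were below 0 in every alternative in which they were fitted (19, 20 and 19). Their groups did not overlap and the alternatives refit the same counts, so this adds nothing on their direction. A value of 1 CPM or less in a library rests on about 20 reads or fewer. For members at that level, differences of the size of their standard errors cannot be seen.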
